A study of Mus musculus with 6 samples.

Results

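The genes described here encode the collagens of the cartilage fibril: Col2a1 (type II), Col9a1, Col9a2 and Col9a3 (type IX), Col11a1 and Col11a2 (type XI) and Col27a1 (type XXVII). They were taken by gene symbol, 7 of the 35976 symbols in the deposited count table, and all 7 passed the filter on low counts and were among the 13761 genes tested. The study sequenced polyadenylated RNA of chondrocytes from the hind limb articular cartilage of mouse embryos at day 18.5 (strain C57BL/6 x 129S4/SvJae), expanded as a monolayer on plastic for 16 population doublings. All cells received doxycycline at 2 µg/ml to induce an H3.3 histone transgene. In the H3K9M group (3 libraries, replicates 1, 3 and 5) that transgene carried a lysine-to-methionine change at residue 9, labelled as suppressing H3K9 methylation, and in the control H3WT group (3 libraries, replicates 1, 2 and 4) it was wild type. The comparison therefore asked how transcripts of expanded chondrocytes differed with and without suppressed H3K9 methylation, both with an induced H3.3. The labels do not give the promoter that drives the transgene, the number of animals or a batch, so the p-values measure only the spread between these libraries. In bulk RNA, fewer cells that express a gene and less RNA per cell cannot be told apart.

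Collagen chains fold in threes into triple helices. Type II collagen, a homotrimer of the Col2a1 product, is the bulk of the cartilage fibril. Type XI collagen nucleates the fibril and sets its thickness, and its chains come from Col11a1, Col11a2 and, as the third, Col2a1. Type IX collagen, a heterotrimer of the Col9a1, Col9a2 and Col9a3 products, sits on the fibril surface and links it to other matrix proteins. Type XXVII collagen is a further fibrillar collagen of developing cartilage. Chondrocytes grown as a monolayer are known to lose type II collagen and to gain the fibroblast collagen of type I, encoded by Col1a1 and Col1a2. The transcription factor Sox9 drives the cartilage collagen genes.

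On the mouse build GRCm38 (mm10, the build in the submitters' processing notes), GENCODE M21 places the genes on 6 chromosomes. Col2a1 lies at chr15:97975602-98004695 on the minus strand, and the others are on the plus strand. The type IX genes are Col9a1 at chr1:24177610-24252684, Col9a2 at chr4:121039385-121055322 and Col9a3 at chr2:180597790-180622189. The type XI genes are Col11a1 at chr3:114030540-114220718 and Col11a2 at chr17:34039437-34066685. Col27a1 lies at chr4:63214004-63334991. Their longest annotated transcripts have 54 exons (Col2a1), 38, 32 and 33 (Col9a1, Col9a2, Col9a3), 67 and 64 (Col11a1, Col11a2) and 61 (Col27a1). Of the 7 genes, Col9a3 alone shares exon bases with another annotated gene, 6.07% of its exon length with Tcfl5 on the opposite strand, and the strand setting of the counts is not given in the sources used here.

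Start-site windows (the 250 bases before each RefSeq start, GRCm38.p6) were found for 5 of the 7 genes, 6 windows in all since Col9a1 has 2 annotated starts. The windows of Col9a1 at its upstream start (chr1:24177360-24177609), Col11a1 (chr3:114030290-114030539) and Col11a2 (chr17:34038888-34039137), all on the plus strand, are shown because the type XI genes differed from each other in their own range between libraries (2.54-fold for Col11a1 and 11.8-fold for Col11a2), and Col9a1 had a large difference between the groups. Capitals mark GC boxes (GGGCGG or its reverse complement CCGCCC) and matches to the letters of the TATA box (TATAAA or TTTATA).
Col9a1: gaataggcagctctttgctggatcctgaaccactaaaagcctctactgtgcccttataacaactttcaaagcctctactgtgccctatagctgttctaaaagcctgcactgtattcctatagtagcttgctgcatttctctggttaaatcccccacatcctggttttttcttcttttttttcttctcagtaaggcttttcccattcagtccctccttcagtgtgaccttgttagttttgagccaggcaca
Col11a1: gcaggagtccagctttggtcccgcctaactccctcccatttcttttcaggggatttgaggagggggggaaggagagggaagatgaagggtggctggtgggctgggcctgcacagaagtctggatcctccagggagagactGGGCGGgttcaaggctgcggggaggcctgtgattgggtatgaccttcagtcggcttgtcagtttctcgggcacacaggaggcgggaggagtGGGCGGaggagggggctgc
Col11a2: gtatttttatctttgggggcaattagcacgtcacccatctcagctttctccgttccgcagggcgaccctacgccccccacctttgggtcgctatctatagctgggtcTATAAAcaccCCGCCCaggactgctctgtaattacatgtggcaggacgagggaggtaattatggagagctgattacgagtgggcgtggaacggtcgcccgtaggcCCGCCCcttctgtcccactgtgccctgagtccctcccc

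GC boxes were present in 4 of the 6 windows, against 32.7% of 32851 RefSeq windows of the same length. They were absent from both Col9a1 windows, which also held 0 CG dinucleotides, as did 7.87% of all windows. Col11a1 had 7 and Col11a2 had 14 CG dinucleotides, and the median of all windows was 6. Col9a2, whose log2 fold change between the groups (-2.13) was farther from 0 than that of Col9a1, had 2 GC boxes and 9 CG dinucleotides. The Col27a1 window had 1 GC box and 15 CG dinucleotides. The RefSeq starts differed from the GENCODE gene starts for some genes. Of the 250 bases, 181 of the Col9a2 window lay inside the GENCODE gene. All 250 did so for the Col27a1 window and the second Col9a1 window. The Col11a2 window ended at 34039137, before the GENCODE gene start at 34039437. Any part of these sequences in the differences between the groups was not tested. The letters of the TATA box occurred in 1 of the 6 windows, at -143 from the RefSeq start of Col11a2, and in 12.4% of all windows. The Sox core AACAAT (or ATTGTT) occurred in 0 of the 6 windows and in 9.42% of all windows, and no matches of these motifs overlapped one another. The deposited counts do not separate the 2 Col9a1 starts, nor splice forms of any of the genes.

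The libraries held between 15113675 and 19606082 counts. Each library was distinct, with replicate pairs differing by at least 26.5 times what sampling of reads gives (chi-square divided by its degrees of freedom). On the second principal component the groups did not overlap, with the H3K9M libraries at 38.4, 39.8 and 19. H3WT replicate 2 stood apart from the other H3WT libraries on it, at -71.5 against -11.4 and -14.4. On the first component H3WT replicate 2 lay with H3K9M replicate 3 (49.1 and 51), away from H3WT replicates 1 and 4 (-56.2 and -51.5). Fold changes and list medians are therefore also given without H3WT replicate 2. Of 10 chondrocyte markers (Sox9, Acan, Matn1 and others), 8 were in the table, and their summed level was 1078 to 1283 CPM (a count normalized for sequencing depth, here with TMM factors) in H3K9M and 1040 to 2148 CPM in H3WT, highest in H3WT replicate 2. Comp was the largest part of that sum in every library, at 656.4, 776.5 and 530.4 CPM in H3K9M and 699.2, 792.8 and 802 CPM in H3WT. Acan was between 136.5 and 721.8 CPM, and H3K9M replicates 1 and 5 exceeded H3WT replicates 1 and 4. Matn1, a cartilage marker, was at 2.88, 6.18 and 13.8 CPM in H3K9M and 3.54, 72.8 and 45.4 CPM in H3WT. The 10 fibroblast markers summed to between 14251 and 35775 CPM in H3K9M and between 12924 and 39748 CPM in H3WT. These sums were lowest in H3WT replicate 2 and H3K9M replicate 3, and were mostly Col1a1, Col1a2, Col3a1 and Col5a2 in every library. Postn and Thy1 were also lowest in those libraries, while Dcn and Pdgfra were highest there (Pdgfra at 242.8 and 236.3 CPM). S100a4 was at 509.5, 613.7 and 636.1 CPM in H3K9M and 320, 317.9 and 235.5 CPM in H3WT. The 8 hypertrophic markers summed to 728 to 2703 CPM in H3K9M and 882 to 1485 CPM in H3WT. Most of that sum was Spp1 in every library (2401 CPM in H3K9M replicate 3). Pth1r and Ibsp were lower in every H3K9M library than in any H3WT library, while Col10a1 and Spp1 overlapped between the groups. The 7 tendon markers summed to 777 to 1092 CPM against 954 to 1854 CPM, most of it Fmod in every library. The tendon factor Scx ran the other way, at 89.5, 75.1 and 90.7 CPM in H3K9M and 50.6, 51.8 and 33.6 CPM in H3WT. The 8 osteoblast markers summed to 18.4 to 19.7 CPM against 23.2 to 46.7 CPM, with Bglap and Bglap2 at or under 3 counts everywhere. The 10 skeletal muscle markers summed to 29.1 to 248.8 CPM in H3K9M, highest in replicate 3, and to 13.2 to 34.3 CPM in H3WT. Myf5 and Pax7 were at or under 3 counts. Myod1, Myog, Des, Tnnt3 and Myh3 were higher in every H3K9M library than in any H3WT library, while Acta1, Ckm and Mylpf overlapped. Des, the largest of those that did not overlap, was at 81, 98 and 8.78 CPM in H3K9M and 4.88, 6.8 and 1.71 CPM in H3WT. Markers of macrophages and blood (6 of 10 at or under 3 counts) summed to 8.04 to 16.5 CPM in H3K9M and 3.84 to 6.29 CPM in H3WT. Endothelial markers (4 of 8 at or under 3 counts) summed to 2.55 to 3.67 CPM against 4.27 to 7.84 CPM, so the groups did not overlap for either of these low sums. The 6 adipocyte markers summed to 23.4 to 44.1 CPM against 33.7 to 50.8 CPM. The part of these lists in the collagen results was not tested.

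Col2a1, the main collagen of the fibril, was among the most abundant transcripts of every library. It had 4971, 5521 and 8421 CPM in H3K9M replicates 1, 3 and 5, and 4913, 14110.3 and 9904 CPM in H3WT replicates 1, 2 and 4. It was lowest in H3WT replicate 1 and highest in H3WT replicate 2, so the H3WT libraries enclosed all the H3K9M libraries. By counts it ranked between the second and the twelfth gene of a library. The log2 fold change in H3K9M was -0.61 (SE 0.39, 95% interval -1.51 to 0.29, Benjamini-Hochberg adjusted p over all genes 0.558, quasi-likelihood test in edgeR), and it was -0.22 without H3WT replicate 2.

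Of the type IX genes, Col9a1 and Col9a2 had the largest differences of the 7 between the groups and Col9a3 a smaller one, and none passed the test. Col9a1 encodes the chain with the large amino-terminal domain that projects from the fibril. It had 25.2, 38.1 and 68.6 CPM in H3K9M replicates 1, 3 and 5, and 38.3, 291.3 and 160.6 CPM in H3WT replicates 1, 2 and 4. H3WT replicates 2 and 4 were above every H3K9M library, and H3WT replicate 1 lay between H3K9M replicates 3 and 5. The log2 fold change was -1.89 (SE 0.75, 95% interval -3.71 to -0.07, unadjusted p 0.0439, adjusted p 0.395, edgeR) and -1.16 without H3WT replicate 2.

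Col9a2, the gene of the second type IX chain, had the lowest mean CPM of the 7 in each group, although Col9a3 was lower in H3WT replicates 1 and 4. It had 7.64, 23.5 and 11.9 CPM in H3K9M replicates 1, 3 and 5, and 14.7, 100.1 and 74.9 CPM in H3WT replicates 1, 2 and 4. The groups overlapped only because H3K9M replicate 3 exceeded H3WT replicate 1. Its log2 fold change of -2.13 was the farthest from 0 of the 7 (SE 0.76, 95% interval -3.98 to -0.29, unadjusted p 0.03, adjusted p 0.357, edgeR). It was -1.62 without H3WT replicate 2.

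Col9a3 encodes the remaining chain of the type IX trimer. It had 11.1, 84.1 and 40.8 CPM in H3K9M replicates 1, 3 and 5, and 11.8, 173.2 and 66.8 CPM in H3WT replicates 1, 2 and 4. Both replicates numbered 1 were about equally low, and H3K9M replicate 3 was above H3WT replicate 4. The log2 fold change was -0.89 (SE 1.04, 95% interval -3.41 to 1.64, adjusted p 0.79, edgeR), and its sign depended on 1 library, with 0.22 without H3WT replicate 2 and -1.68 without H3K9M replicate 3.

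Of the type XI genes, Col11a1 was the more abundant and the steadier. Col11a1 had 1223 CPM in H3K9M replicate 1, 893 in replicate 3 and 1625 in replicate 5, and 1199, 2268 and 1868 CPM in H3WT replicates 1, 2 and 4. Its log2 fold change was -0.51 (SE 0.29, 95% interval -1.18 to 0.15, adjusted p 0.505, edgeR), and -0.29 without H3WT replicate 2. The groups overlapped because H3WT replicate 1 was below H3K9M replicates 1 and 5.

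Col11a2, the gene of the cartilage-restricted type XI chain, had 29.3, 112.8 and 100.9 CPM in H3K9M replicates 1, 3 and 5, and 42.6, 345.6 and 193.4 CPM in H3WT replicates 1, 2 and 4. Here too H3WT replicate 1 lay inside the H3K9M range while the other H3WT libraries lay above it. The log2 fold change was -1.26 (SE 0.81, 95% interval -3.23 to 0.72, adjusted p 0.582, edgeR), and -0.53 without H3WT replicate 2. Col27a1, the type XXVII gene, had 14.7, 57.9 and 36.3 CPM in H3K9M and 21.2, 175.5 and 60.4 CPM in H3WT in the same order. Its H3WT replicate 4 exceeded H3K9M replicate 3 by little, and its log2 fold change was -1.24 (SE 0.83, 95% interval -3.25 to 0.78, adjusted p 0.6, edgeR) and -0.15 without H3WT replicate 2.

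**Figure D1:**
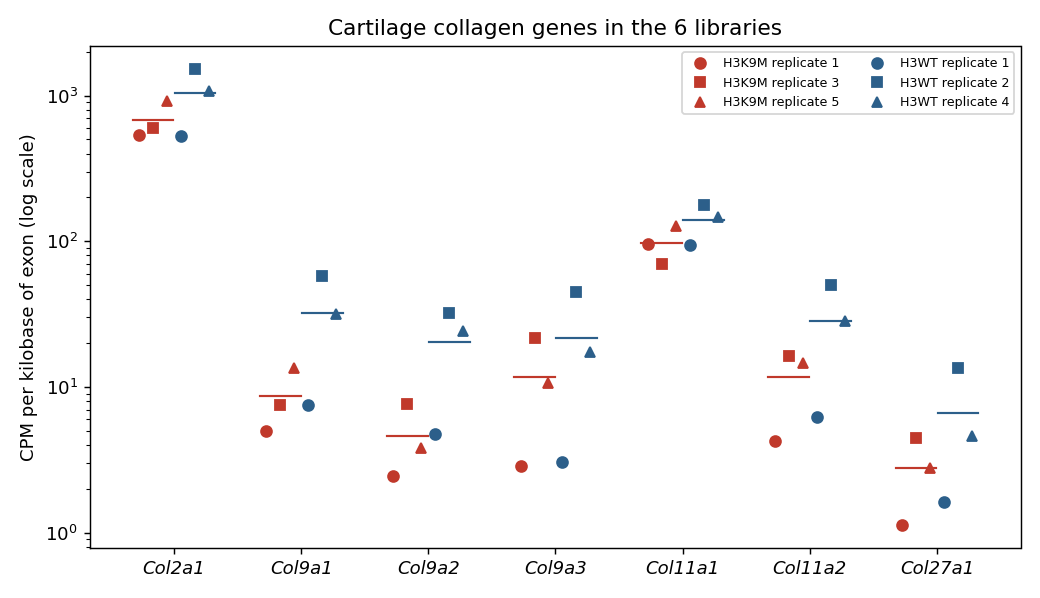
CPM per kilobase of exon (log axis) of the 7 collagen genes in each library, with H3K9M in red, H3WT in blue and horizontal lines at the group means (n = 3). H3WT replicate 2 (blue square) is the highest library for every gene, and the 2 groups overlap for all 7.

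Across the 7 genes, 0 passed an adjusted p of 0.05 (edgeR), where the background over all 13761 genes was 0.0%. DESeq2 and limma-voom also called 0 of the 7, with lowest adjusted p-values of 0.172 and 0.437. Of all 13761 genes they called 390 and 0. At an unadjusted p under 0.05 there were 2 of the 7 (Col9a1 and Col9a2) with edgeR, where 12.2% of all genes lay under that level. There were the same 2 with DESeq2 (13.6% of all genes) and 0 with limma-voom (12.1%). Leaving out 1 library moved the edgeR count from 0 (without replicate 2 or 4 of H3WT or replicate 1 of H3K9M) to 5 (without H3WT replicate 1, with Col2a1, Col11a1 and Col11a2 added). The share of all genes under that level moved as well. It was 17.1% without H3WT replicate 2, 9.14% without H3WT replicate 4 and 8.48% without H3K9M replicate 1. Without H3WT replicate 1 it was 8.78%. The groups overlapped for all 7, while they did not overlap for 19.4% of all genes. All 7 log2 fold changes were below 0, as were 50.4% of those of all genes, and their median was -1.24 against -0.003 for all genes. A decrease of at least 2-fold was seen in 4 of the 7 and in 5.34% of all genes. The 7 genes vary together between libraries, so their shared sign is not 7 separate observations. Without H3WT replicate 2 the median was -0.29, with 6 of 7 below 0. With any other single library left out, all 7 stayed below 0. The median then ran from -1.70 (without H3WT replicate 1) to -0.86 (without H3K9M replicate 1), and was -1.68 without H3K9M replicate 3.

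**Figure D2:**
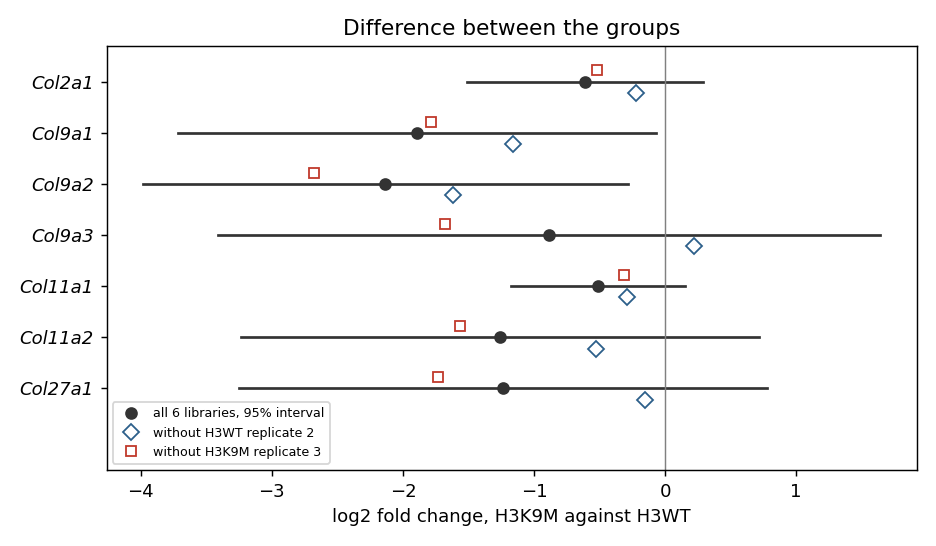
Log2 fold change of each gene in H3K9M against H3WT with its 95% interval (filled circles and lines, 3 libraries against 3), and the value without H3WT replicate 2 (blue diamonds) or without H3K9M replicate 3 (red squares). The intervals of Col9a1 and Col9a2 lie below 0 before adjustment for multiple testing, and leaving out H3WT replicate 2 moves all 7 values toward or past 0.

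The spread between libraries fell into 2 classes. Col2a1 and Col11a1, the abundant chains, differed by 2.87 and 2.54 times between their highest and lowest libraries. The other 5 genes differed by 11.6 (Col9a1), 13.1 (Col9a2), 15.7 (Col9a3), 11.8 (Col11a2) and 11.9 times (Col27a1). Without H3WT replicate 2 the ranges were 2.02 and 2.09 times for Col2a1 and Col11a1, and between 4.1 (Col27a1) and 9.8 times (Col9a2) for the others. Much of that range lay inside the control group, since within H3WT alone Col9a3 differed 14.7-fold, Col27a1 8.27-fold and Col11a2 8.11-fold. Within H3K9M the same genes differed 7.61-fold, 3.93-fold and 3.85-fold. The biological coefficient of variation, edgeR's estimate of replicate spread, was 0.34 for Col2a1 and 0.27 for Col11a1, between 0.595 and 0.82 for the other 5, and 0.239 at the median of all genes. Col9a3 had a higher value than 93.2% of genes.

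The highest library was the same for the 7 genes, and the order of the others was only partly alike. Over the 6 libraries, Pearson's r between pairs of the 7 ran from 0.469 (Col9a3 with Col11a1) to 0.973 (Col2a1 with Col9a1). H3WT replicate 2 was the highest library for all 7, where it was the highest for 19.5% of all genes tested. H3K9M replicate 1 was the lowest for 5 of the 7, where it was the lowest for 14.9% of all genes, and the exceptions were Col2a1 (lowest in H3WT replicate 1) and Col11a1 (lowest in H3K9M replicate 3). Relative to each gene's mean over the 6 libraries, the median of the 7 genes was -1.56 (log2) in H3K9M replicate 1, -0.08 in replicate 3 and -0.03 in replicate 5. In H3WT it was -0.87 in replicate 1, 2 in replicate 2 and 0.68 in replicate 4. The within-group SD of this median was 1.19. H3K9M replicate 3 split the genes, with Col9a3 at 1.01 and Col27a1 at 0.40 above their means and Col9a1 at -0.88 and Col11a1 at -0.69 below.

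**Figure D3:**
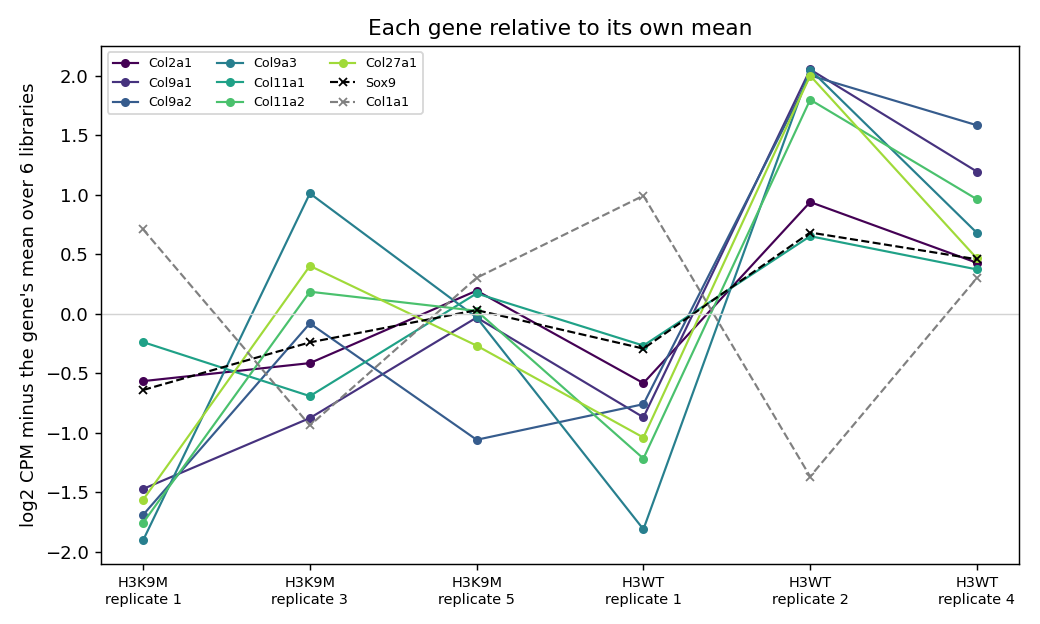
Log2 CPM of each collagen gene minus its mean over the 6 libraries, by library, with Sox9 and Col1a1 dashed for reference; lines only join the values of 1 gene. The collagen genes and Sox9 are highest in H3WT replicate 2, where Col1a1 is lowest, and Col9a3 stands above the other collagen genes in H3K9M replicate 3.

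Among 9770 other genes with a mean of at least 3 on the log2 CPM scale, those most like the mean pattern of the 7 collagen genes over the 6 libraries, by Pearson's r, were Btbd9 (r 0.994), Usp31 (0.989), Matn1 (0.982), Tapbp (0.98) and Sox9 (0.98). They were picked as the highest values of many over only 6 libraries, and the r is a measure of likeness without a test. Matn1 encodes matrilin-1, a cartilage matrix protein, and Sox9 the transcription factor named above. Sox9 had 113.8, 150.3 and 181.3 CPM in H3K9M replicates 1, 3 and 5, and 144.9, 285.1 and 243.9 CPM in H3WT replicates 1, 2 and 4. Its range over the libraries was 2.5-fold, near that of Col2a1 and Col11a1 and below that of the other 5 genes. Col1a1 ran the other way (r -0.699).

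Per kilobase of exon, the level of the genes had a steep order. In H3WT the means were 1043 ± 498 CPM per kilobase for Col2a1, 139.6 ± 42.4 for Col11a1, 32.2 ± 25 for Col9a1, 28.2 ± 22 for Col11a2, 21.8 ± 21.3 for Col9a3, 20.4 ± 14.2 for Col9a2 and 6.58 ± 6.16 for Col27a1 (SD, n = 3). In H3K9M they were 682 ± 200.6 for Col2a1, 97.9 ± 28.7 for Col11a1, 11.8 ± 6.57 for Col11a2, 11.8 ± 9.54 for Col9a3, 8.67 ± 4.39 for Col9a1, 4.64 ± 2.66 for Col9a2 and 2.79 ± 1.66 for Col27a1. Col2a1 and Col11a1 stood clear of the rest in both groups. The ranges of the type IX genes and Col11a2 overlapped one another in each group, as did those of Col9a2 and Col27a1. Exon lengths came from GENCODE M21, and since the authors' annotation is not given in the sources used here, a level per kilobase is approximate.

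Ratios between transcripts of 1 library do not depend on library scaling, and 10 ratios of reads per kilobase were compared between the groups with a two-sided exact permutation test, whose smallest possible p is 0.1 with 3 libraries against 3. None reached it, and the groups overlapped in all 10. The exact p ran from 0.2 to 0.9, and after Benjamini-Hochberg adjustment from 0.75 to 0.9. The steadiest ratio was that of the type XI genes (Col11a1 and Col11a2 summed) to Col2a1, the fibril-nucleating collagen relative to the main one. It was 0.186, 0.145 and 0.156 in H3K9M replicates 1, 3 and 5, against 0.189, 0.15 and 0.163 in H3WT replicates 1, 2 and 4. It differed 1.3-fold between the extreme libraries and by -0.042 on the log2 scale between the groups (exact p 0.7).

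Within type XI the chains were not in a fixed proportion. Per kilobase, Col11a1 exceeded Col11a2 22.5-fold, 4.27-fold and 8.68-fold in H3K9M replicates 1, 3 and 5, against 15.2-fold, 3.54-fold and 5.21-fold in H3WT replicates 1, 2 and 4. The excess was largest in the replicates numbered 1 of both groups, the libraries in which Col11a2 was lowest. The groups differed by 0.53 on the log2 scale (exact p 0.6). The ratio of Col11a1 to Col5a1, a chain with which type XI chains can form mixed fibrils of types V and XI, was 0.227, 0.433 and 0.36 in H3K9M and 0.167, 1.24 and 0.359 in H3WT, in the same order of replicates. Only in H3WT replicate 2 did Col11a1 exceed Col5a1, and the groups differed by -0.35 on the log2 scale (exact p 0.9).

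The 3 type IX chains, of which the trimer holds equal numbers, also had unequal transcript levels. The ratio of Col9a1 to Col9a2 was 2.01, 0.989 and 3.52 in H3K9M replicates 1, 3 and 5, against 1.6, 1.78 and 1.31 in H3WT replicates 1, 2 and 4. The ratio of Col9a2 to Col9a3 was 0.86, 0.348 and 0.363 in H3K9M and 1.55, 0.72 and 1.4 in H3WT. It had the smallest p of the 10, with a difference of -1.28 on the log2 scale (exact p 0.2, adjusted p 0.75), and H3K9M replicate 1 and H3WT replicate 2 overlapped. The ratio of Col9a1 to Col9a3 was 1.73, 0.345 and 1.28 in H3K9M and 2.47, 1.28 and 1.83 in H3WT (log2 difference -0.97, exact p 0.3), lowest in H3K9M replicate 3. Col9a3 shares 6.07% of its exon length with Tcfl5, as given above, and the part of this overlap in the ratios was not tested.

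Relative to Col2a1, the summed type IX genes varied more between libraries than the summed type XI genes, a sum that was mostly Col11a1. Col11a2 on its own ranged 11.8-fold in CPM, near the ranges of the type IX genes. The summed type IX genes were 0.0192, 0.0619 and 0.0307 of Col2a1 in H3K9M replicates 1, 3 and 5, against 0.0289, 0.0883 and 0.0683 in H3WT replicates 1, 2 and 4. That is a range of 4.61-fold between libraries, with a difference of -0.75 on the log2 scale between the groups (exact p 0.3). Col27a1 relative to Col2a1 had a range of 4.2-fold and a group difference of -0.43 (exact p 0.5).

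**Figure D4:**
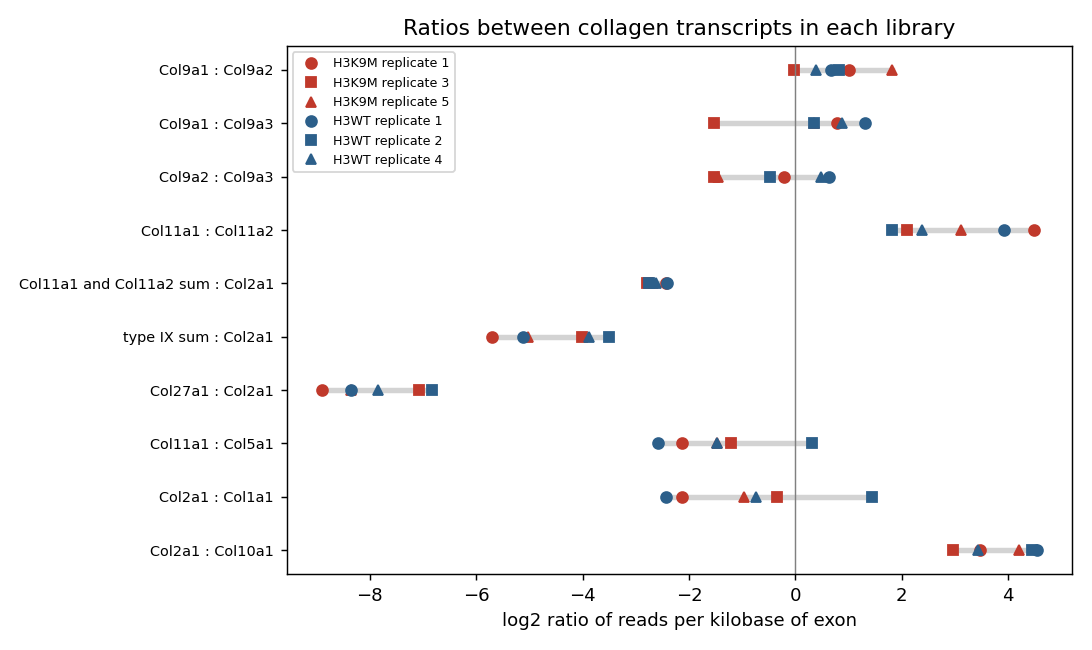
Log2 ratio of reads per kilobase of exon for 10 pairs of collagen transcripts in each library (H3K9M red, H3WT blue), with a grey bar from the lowest to the highest library. The ratio of type XI genes to Col2a1 spans 0.38, that of Col2a1 to Col1a1 spans 3.88, and the groups overlap in all 10.

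The ratio of Col2a1 to Col1a1, often used as an index of the cartilage against the fibroblast phenotype, had the widest range of the 10. It was 0.227, 0.79 and 0.51 in H3K9M replicates 1, 3 and 5, against 0.184, 2.72 and 0.6 in H3WT replicates 1, 2 and 4. The extremes were both H3WT libraries, 14.8-fold apart, and Col2a1 exceeded Col1a1 per kilobase only in H3WT replicate 2. With the longest transcript as the length, it also did so in H3K9M replicate 3 (log2 ratio 0.37), and the mean log2 ratio over the 6 libraries was -0.15 in place of -0.86. The groups differed by -0.57 on the log2 scale (exact p 0.8), and by 0.44 in the opposite direction without H3WT replicate 2. The ratio of Col2a1 to Col10a1, the collagen of hypertrophic chondrocytes, was 11.1, 7.84 and 18.5 in H3K9M and 23.3, 21.8 and 10.8 in H3WT (log2 difference -0.59, exact p 0.3).

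Together the 7 genes took 0.62%, 0.721% and 1.03% of the counted reads in H3K9M replicates 1, 3 and 5, against 0.596%, 1.8% and 1.18% in H3WT replicates 1, 2 and 4. The means were 0.79% ± 0.213 and 1.19% ± 0.602 (SD, n = 3), and the difference did not exceed the spread (two-sided exact permutation p 0.4). It was -0.401 percentage points, -0.096 without H3WT replicate 2 and -0.698 without H3WT replicate 1. In the last of these the groups did not overlap (exact p 0.1, the smallest that 3 libraries against 2 allow). Of the reads on the 7 genes, 18% to 21.3% fell on genes other than Col2a1 in any library, and Col11a1 took between 67.6% (H3WT replicate 2) and 93.3% (H3K9M replicate 1) of these.

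Genes that act with these collagens were counted in lists drawn from general knowledge, but chosen with earlier results of these data known. The counts are therefore not independent of the data. In none of the lists did a gene pass an adjusted p of 0.05 with edgeR or limma-voom. Each count below at an unadjusted p under 0.05 stands against 12.2% of all genes, and each median against -0.003 for all genes. Calls by DESeq2 stand against 390 of 13761 genes, and adjusted calls without H3WT replicate 2 against 91 of 14246 genes. Of 18 tested matrix partners of the fibril (Acan, Hapln1, matrilins and others), 4 lay lower and 1 higher at an unadjusted p under 0.05, with a median log2 fold change of -0.40 that was -0.07 without H3WT replicate 2. Prelp, a leucine-rich proteoglycan that binds collagen, had the smallest p of the list, with 129.2, 83.8 and 137.8 CPM in H3K9M and 682.9, 333.9 and 755.5 CPM in H3WT, with a log2 fold change in H3K9M of -2.34 (SE 0.34, edgeR adjusted p 0.17). Its groups did not overlap, and unlike the collagen genes it was lowest among the H3WT libraries in replicate 2. Without that library its adjusted p was 0.0129, and DESeq2 called it with 3 others of the list (Fmod, Matn4 and Cilp). Cilp, the smallest p among those higher, was at 3.31 ± 3.02 CPM in H3K9M and 0.112 ± 0.194 CPM in H3WT, with 0 counts in 2 H3WT libraries.

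Of the 15 transcription factors that act on cartilage collagen genes, 5 lay lower and 0 higher at an unadjusted p under 0.05, and the median was -0.27 (-0.38 without H3WT replicate 2). Snai1, a repressor of Col2a1, had 103.2, 96.6 and 117.8 CPM in H3K9M and 198.5, 182.6 and 188.3 CPM in H3WT, with a log2 fold change in H3K9M of -0.84 (SE 0.12, edgeR adjusted p 0.147), with an adjusted p of 0.043 without H3WT replicate 2. DESeq2 called Snai1, Snai2 and Nkx3-2. Snai1 had a narrow spread within H3WT where the collagen genes had a wide one. Twist1, the smallest p among those higher, was at 0.21 (log2 fold change, SE 0.17, adjusted p 0.671).

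The machinery that folds, modifies and exports procollagen had 24 tested genes, with 2 lower and 0 higher at an unadjusted p under 0.05 and a median of -0.14 (-0.12 without H3WT replicate 2), a share of called genes below that of all genes. Plod3, a lysyl hydroxylase and glycosyltransferase of collagen, had the smallest p (log2 fold change -0.53, SE 0.17, adjusted p 0.29), and P4ha3, a prolyl hydroxylase subunit, the smallest among those higher (0.34, SE 0.20, adjusted p 0.525). The 12 trimming and crosslinking genes had 2 higher and 0 lower and a median of -0.19 (-0.082 without H3WT replicate 2). Among them Tll1, a procollagen C-proteinase, was at 0.95 (log2 fold change, SE 0.29, adjusted p 0.277) and Pcolce, its enhancer protein, -0.28 (SE 0.14, adjusted p 0.453). The 8 collagen receptors tested had 1 lower, Itga1 (log2 fold change -1.37, SE 0.55, adjusted p 0.394), and a median of -0.035 (-0.056 without H3WT replicate 2). Itgb1 had the smallest p among those higher (0.30, SE 0.13, adjusted p 0.415).

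The 10 tested genes of collagen breakdown had 1 higher and 0 lower and a median of -0.066 (-0.083 without H3WT replicate 2). The higher gene was the lysosomal protease Ctsl (log2 fold change 0.51, SE 0.14, adjusted p 0.242), which DESeq2 called, and Mmp13, the collagenase of cartilage, had -1.24 (SE 0.53, adjusted p 0.414). The 10 fibroblast collagens had 1 lower and 0 higher and a median of -0.17 (-0.36 without H3WT replicate 2), and Col6a3 was the only 1 of them with a value above 0 (0.46, SE 0.34, adjusted p 0.631). All 37 collagen genes outside the 7, which include these 10, held 27 tested genes, with 1 lower and 1 higher at an unadjusted p under 0.05 and a median of -0.09 (-0.30 without H3WT replicate 2). The lower gene of both lists was Col14a1. Col14a1, a fibril-associated collagen of tendon and skin, had 6.43, 3.87 and 4.03 CPM in H3K9M and 45.8, 12.3 and 39.6 CPM in H3WT, with a log2 fold change in H3K9M of -2.78 (SE 0.50, edgeR adjusted p 0.17). Its adjusted p was 0.0129 without H3WT replicate 2. Col5a3 had 1.10 (SE 0.36, adjusted p 0.308), and DESeq2 called both.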

How the data were processed

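Polyadenylated RNA was sequenced from 6 libraries, and the deposited table holds raw read counts per gene symbol, which the authors did not normalize, as judged from whole numbers with unequal totals. HISAT2, featureCounts, DESeq2 and the build mm10 are named in the submitters' processing notes, and versions, annotation and strand setting are not given in the sources used here. Columns were matched to samples by title, and groups come from the titles. The analysis used edgeR 4.0.16 in R 4.3.3 (filterByExpr, TMM, robust quasi-likelihood fit over all 6 libraries, genotype alone in the model). Adjustment of p-values was by Benjamini-Hochberg over 13761 genes with a threshold of 0.05. An SE is the log2 fold change divided by the square root of F, and the 95% interval uses the fit's degrees of freedom. Principal components used log2 CPM with a prior count of 2. Levels per kilobase used the union of GENCODE M21 exons.

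Alternatives were DESeq2 1.42.0, limma-voom (limma 3.58.1), other scalings and low-count filters, loess offsets (span 0.5) on GC content or on GC content and length, for which 94.3% of the tested genes had values, each library left out, and, added after the data were seen, H3K9M replicate 3 and H3WT replicate 2 left out together. The named genes were the 7 collagen genes, the smallest p in each direction in each list, the 5 genes of most like pattern, and a few reference genes. Other genes called by DESeq2 or with marker values were named after their values were seen. The collagen genes and the lists were chosen with earlier results of these data known. The fit was tested on simulated data.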

Additional observations from a re-analysis of the deposited data

How the results depend on the processing

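The count of genes past the threshold, 0 with edgeR, was 390 with DESeq2 on the same genes, 36 with every gene that had a count, 1 at an adjusted p under 0.1, and 302 without H3K9M replicate 3 and H3WT replicate 2 together, an alternative chosen after the data were seen. Over the fits that each left out 1 library it ran from 0 to 91, with 91 without H3WT replicate 2 and 2 without H3K9M replicate 3. The cause was not tested. The other alternatives gave 0. None of the 7 collagen genes passed under any alternative, and all had values below 0 except Col9a3 without H3WT replicate 2 (0.22). The range of Col9a3 over the alternatives was -1.68 to 0.22, of Col9a2 -2.68 to -1.62, of Col9a1 -2.36 to -1.06, of Col11a2 -1.73 to -0.53, of Col27a1 -1.73 to -0.15, of Col2a1 -0.93 to -0.13 and of Col11a1 -0.74 to -0.09. Among the ratios, leaving out 1 library turned the sign of the log2 difference for Col9a1 to Col9a2 (-0.13 without H3K9M replicate 5, the highest being 0.78), Col11a1 to Col11a2 (-0.10 without H3K9M replicate 1, the highest being 1.13), the type XI genes to Col2a1 (0.036 without H3K9M replicate 3 and 0.049 without H3WT replicate 1, the lowest being -0.15), Col11a1 to Col5a1 (0.43 without H3WT replicate 2, the lowest being -1.02) and Col2a1 to Col1a1 (0.44 without H3WT replicate 2, the lowest being -1.50). With both libraries left out, the last 2 were 0.23 and 0.032. Taking the longest transcript as the length in place of all exons cannot change the group difference of a ratio between single genes, but moved the mean log2 ratio of Col2a1 to Col10a1 from 3.84 to 4.70 and of Col11a1 to Col5a1 from -1.43 to -0.71. The share of reads on the 7 genes stayed lower in H3K9M in every alternative. No paired analysis was possible because the groups share only the replicate number 1.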
